A study of Mus musculus with 5 samples.

Results

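The let-7 family of mouse was followed through liver development in Ago HITS-CLIP data, which record both the miRNAs held by Argonaute (Ago) proteins and the mRNA fragments beneath them. The members are mmu-let-7a-5p, mmu-let-7b-5p, mmu-let-7c-5p, mmu-let-7d-5p, mmu-let-7e-5p, mmu-let-7f-5p, mmu-let-7g-5p, mmu-let-7i-5p and mmu-miR-98-5p, called let-7a to let-7i and miR-98 from here on. They were taken by name from the interaction tables and are 9 of the 995 miRNAs listed. Entries of different members at the same position were counted as 1 family site, because the members share their seed and so match the same bases. This gave 4263 family sites over all stages, with 1197, 604 and 678 in embryonic liver (e12.5, e15.5 and e18.5), 2050 at postnatal day 7 (P7) and 1755 in adult liver. Values for the 5 stages are given in this order. The family sites were between 0.14% and 0.539% of the sites of all miRNAs in a library.

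All livers were from wild-type C57BL/6 mice (C57BL/6J in the methods) and received 3 exposures to ultraviolet light of 254 nm at 0.2 J/cm2 before Ago was precipitated. Embryonic livers were precipitated with 2 antibodies to Ago2 (Wako and Abnova), and for P7 and adult livers (6 to 8 weeks of age) an antibody to Ago1 (MBL) was added. The antibodies and the stages after birth therefore cannot be told apart. Each stage had 1 interaction table, referred to as its library, without labelled replicates, so each test compares a pair of libraries and not the stages, and intervals cover counting error only. The samples were whole livers, in which fewer cells of a type and less RNA per cell cannot be told apart. Markers of hepatocytes (6 of 6 listed in every library) held 0.326% of mRNA cluster reads at e12.5 and 6.62% in the adult, while markers of erythroid cells held between 13.3% and 15.3% in the 3 embryonic libraries, 8.01% at P7 and 0.56% in the adult. Hbb-b1 was listed at 0 in all 5 libraries, and Hbb-y was also at 0 in the adult. The part of this change in cell makeup in the results below was not tested.

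let-7 was among the first miRNAs found, as a regulator of developmental timing in worms. In mammals its level rises as tissues differentiate, and it represses genes of early development and growth such as Hmga2, Lin28b and the Igf2bp genes, while the Lin28 proteins block the maturation of its precursors. A miRNA finds its targets mainly through the seed, bases 2 to 8 counted from its 5′ end, and a match opposite the seed is called a 6mer, a 7mer-m8, a 7mer-A1 or an 8mer by how far it extends.

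The mature sequences of the members are shown 5′ to 3′ with the seed in capitals, since the shared seed defines the family and the bases after it tell the members apart. They were taken from RefSeq on GRCm38.p6, where 9 of 9 members were matched, and are identical to those in the deposited tables.
let-7a: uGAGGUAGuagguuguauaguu
let-7b: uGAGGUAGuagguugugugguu
let-7c: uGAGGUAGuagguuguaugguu
let-7d: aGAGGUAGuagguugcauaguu
let-7e: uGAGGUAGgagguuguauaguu
let-7f: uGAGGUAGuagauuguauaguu
let-7g: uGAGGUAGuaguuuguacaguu
let-7i: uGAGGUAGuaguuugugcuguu
miR-98: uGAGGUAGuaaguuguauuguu
None of the members differed from let-7a within the seed. Counted from the 5′ end, with the base of let-7a first, let-7c differed only at A19G, let-7b at A17G and A19G, let-7e at U9G and let-7f at G12A. let-7d carried U1A and U16C, let-7g carried G12U and U18C, miR-98 carried G11A and A19U, and let-7i had 4 differences, G12U, A17G, U18C and A19U.

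The members are encoded at several places in the genome, and the table used here held 11 gene entries for them on 7 chromosomes. It lists 1 entry for let-7a, whose other copy is not analysed here, although clusters at 2 let-7a loci entered the comparison of read numbers described with the abundance values. Both let-7b and a copy of let-7c lie on the plus strand of chromosome 15, at chr15:85707325-85707346 (Mirlet7b) and chr15:85706616-85706637 (Mirlet7c-2), and the other let-7c copy lies at chr16:77599672-77599693 (Mirlet7c-1). The genes of let-7a, let-7f and let-7d lie together on the minus strand of chromosome 13, at chr13:48538239-48538260 (Mirlet7a-1), chr13:48537889-48537910 (Mirlet7f-1) and chr13:48536078-48536099 (Mirlet7d). The second let-7f copy (Mirlet7f-2, chrX:151912353-151912374) and miR-98 (Mir98, chrX:151913229-151913250) are neighbours on the X chromosome. let-7e, let-7g and let-7i each come from 1 entry, at chr17:17830366-17830387, chr9:106178846-106178867 and chr10:122985698-122985719.

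The share of the 9 members in all Ago-bound miRNA reads was higher at each later stage. It began at 2.452% (626327 of 25546696 reads, 95% Wilson interval 2.446 to 2.458), passed through 3.61%, 5.718% and 15.26%, and reached 22.42% in the adult (5139004 of 22917686 reads, interval 22.41 to 22.44). The adult share was thus 9.14-fold that at e12.5, and 7.03-fold (3.99% and 28%) when the numbers of a miRNA's gene copies were summed instead of taking the highest. Among seed families, let-7 held ranks 7, 6 and 5 before birth and rank 1 at both P7 and adult. The read counts are the numbers written in the interaction names, which the tables do not explain. They were compared with the highest reads of the clusters at each member's own genes, and these came to a median of 97.3% of the number over 67 comparisons. In 64 of them the value was over 80%, and the 3 below were all of miR-98.

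let-7b and let-7c made up most of this difference. let-7b held 0.04885%, 0.1563%, 0.3794%, 1.507% and 3.004% of miRNA reads. Its adult share was 61.5-fold that of e12.5, and its rank among all miRNAs moved from 114 to 8. The adult share of let-7c was 33.6-fold that of e12.5, and by the numbers in the interaction names let-7c moved from rank 22 to rank 1 among all miRNAs. Together let-7b and let-7c were 20.9%, 32%, 50.2%, 81.4% and 83% of the family reads. The other 7 members together moved from 1.94% of miRNA reads at e12.5 to 2.45%, 2.85%, 2.84% and 3.81% at the later stages, a 1.97-fold change.

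The remaining members differed in the stage at which they were highest. let-7a was the leading member at e12.5 and e15.5, with 39.15% and 32.77% of the family reads, and was 5.532% of the family at P7 while its share of all miRNA reads was 0.9599%, 1.183%, 1.007%, 0.8443% and 1.246%. let-7f was at 0.4656%, 0.5439%, 0.8173%, 1.047% and 1.623%, and let-7g at 0.1883%, 0.2794%, 0.3607%, 0.3321% and 0.4952%, both highest in the adult. let-7d was at 0.1531%, 0.1847%, 0.3107%, 0.3533% and 0.2597%, and whether it was highest at P7 or at e18.5 depended on the list used for e18.5 (0.26% and 0.458%). let-7i was highest at e18.5 (0.1009%, 0.1418%, 0.1788%, 0.139% and 0.1148%), though in the first list alone it was at 0.199% at e15.5 and 0.186% at e18.5. let-7e also peaked at e18.5 and returned in the adult to its starting level (0.04865%, 0.09482%, 0.1474%, 0.09733% and 0.04788%). miR-98 was the least abundant member in each library, between 0.02234% and 0.03083% of miRNA reads. The log2 change between the e12.5 and adult libraries ran from -0.02 for let-7e to 5.93 for let-7b, so members with the same seed moved by very different amounts. When gene copies were summed, the direction between these libraries turned for let-7a (1.76% and 1.71%), let-7i (0.093% and 0.0788%) and miR-98 (0.0206% and 0.0179%). let-7i and miR-98 had 1 number per list, so for these only the total changed. For let-7a the first list of e12.5 gave 41008 and 40503, and the highest cluster reads at its 2 loci came to 40743 together.

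**Figure D1:**
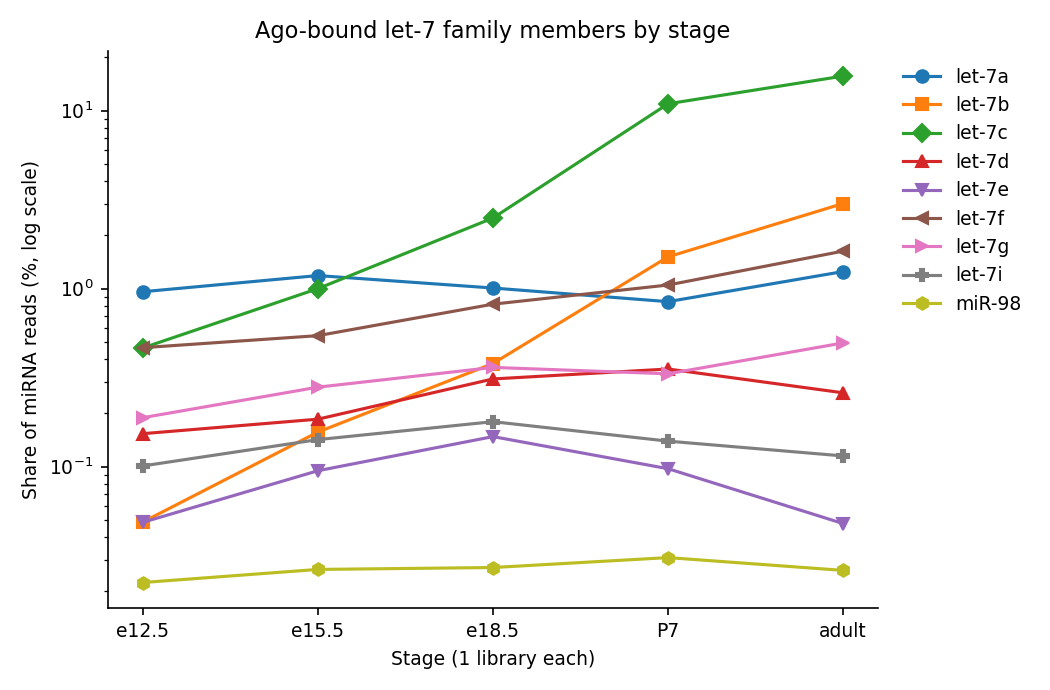
Share of each let-7 family member in the Ago-bound miRNA reads of the 5 libraries (percent, log scale; 1 point per library). let-7c and let-7b go from 0.4641% and 0.04885% at e12.5 to 15.61% and 3.004% in the adult, while let-7a stays between 0.8443% and 1.246%.

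The embryonic tables each hold 2 lists of entries, which the labels do not describe and which were therefore not treated as replicates, and member shares differed between them. At e15.5 let-7b was at 0.302% of miRNA reads in the first list and 0.108% in the second, and at e18.5 let-7a was at 0.833% and 1.52%. At e15.5 let-7c was 42.91% of the family in the first list and 20.11% in the second, while let-7a was 22.04% and 38.11%, so that the leading member at this stage depended on the list. The family share itself was 4.838% in the first list of e15.5 and 3.205% in the second. At e12.5 and e18.5 both lists gave the same leading member, let-7a at e12.5 (35.58% and 39.96%) and let-7c at e18.5 (42.66% and 45.2%).

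Other seed families had a course of similar shape, though the size of the change differed. The 5 with the highest Pearson correlation to let-7 over the 5 libraries, among 76 families, were those of miR-190a-5p (0.988), miR-101a-3p (0.987), miR-101b-3p (0.986), miR-194-5p (0.982) and miR-26a-5p (0.959), on a log2 scale of reads per 1000000 miRNA reads plus 1. miR-194-5p, a miRNA of hepatocytes and gut epithelium, was at 0.652% and 10% of miRNA reads in the e12.5 and adult libraries. In the same libraries the miR-190a-5p family was at 0.0391% and 0.116% and that of miR-26a-5p at 2.15% and 6.07%. Those of miR-101a-3p and miR-101b-3p went from 0.0132% and 0.101% to 0.293% and 0.617%. A correlation over 5 libraries is a description only and was not tested.

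The share of Ago clusters that held a family site was also higher after birth, by a smaller factor than the miRNA. Of 3′UTR clusters, 322 of 39452 held a family site at e12.5, or 0.8162% (interval 0.7321 to 0.9099), and 176 of 18219 at e15.5, or 0.966% (0.834 to 1.119). At e18.5 it was 168 of 16150, or 1.04% (0.895 to 1.209), at P7 521 of 29603, or 1.76% (1.616 to 1.916), and in the adult 382 of 15914, or 2.4% (2.174 to 2.65). The 3 embryonic intervals overlapped between neighbouring stages, and the P7 and adult intervals lay above them. The adult share was 2.94-fold that of e12.5, against 9.14-fold for the miRNA reads. With genes in place of clusters as the unit the difference was smaller (3.46% and 6.24%), and the embryonic shares then ran the other way, at 3.46%, 2.83% and 2.69%. By number of 3′UTR clusters the family ranked 267 of 629 seed families at e12.5 and 20 of 489 in the adult.

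Between the adult and e12.5 libraries the odds of a family site in a 3′UTR cluster were higher in the adult by 1.58 on the log2 scale (two-sided Fisher's exact test over 311 seed families, Benjamini-Hochberg adjusted exact p = 5.78e-44). This was the fifth highest log2 odds ratio, in a comparison in which 21.5% of the families were called higher in the adult and as many lower. The step from e18.5 to P7 had a log2 odds ratio of 0.77 (adjusted exact p = 1.9e-08), with 17.8% of 343 families called higher at P7. The step from P7 to adult had 0.46 (adjusted exact p = 0.000184), with 13.8% of 334 families called higher. When the 15914 3′UTR clusters with most reads were taken from each library, this last difference was 0.02 (adjusted exact p = 0.999), with a share of 2.36% at P7, so that call depended on the number of clusters. The steps before birth were not called, with 0.25 from e12.5 to e15.5 (adjusted exact p = 0.169; 12.3% of families called higher) and 0.11 from e15.5 to e18.5 (adjusted exact p = 0.702; 4.28% called higher). With equal cluster numbers the first of these was -0.15 (adjusted exact p = 0.515).

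Coding sequences gave a similar picture. CDS clusters with a family site were 0.9597%, 1.053%, 1.256%, 1.64% and 2.202% of all CDS clusters, a 2.29-fold difference between e12.5 and adult. The CDS share was above the 3′UTR share at e12.5, where the interval of 0.8838 to 1.042 reached into that of the 3′UTR, and below it in the adult, again with overlapping intervals. 5′UTR clusters with a site were 0.4785% at e12.5 and 1.674% in the adult, over only 24 and 49 such clusters.

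**Figure D2:**
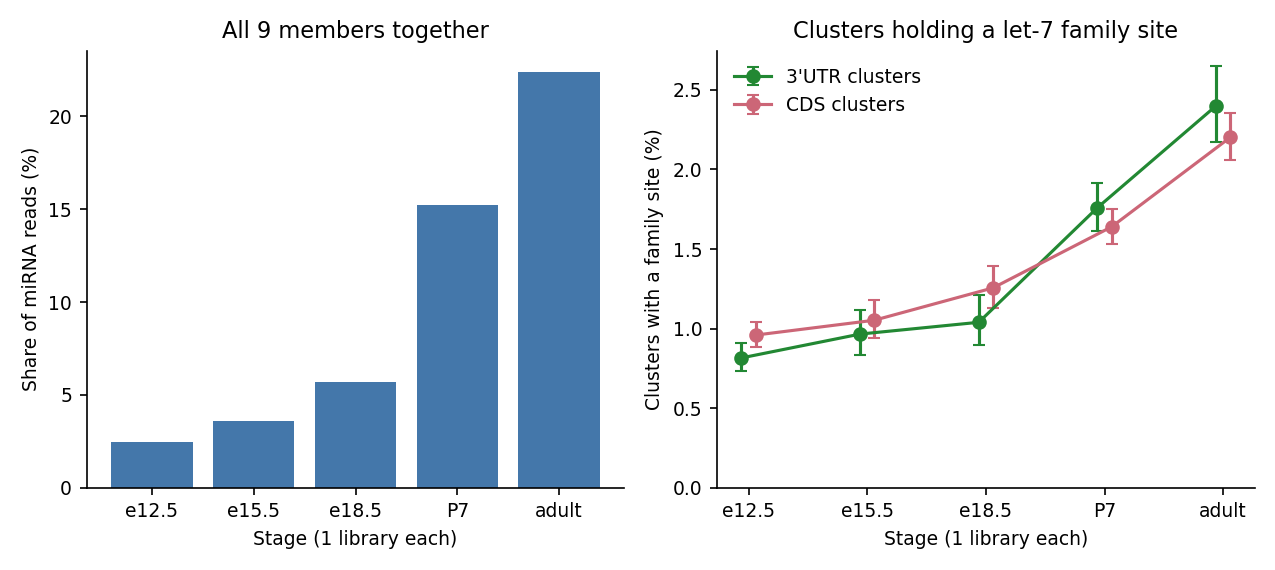
Left, share of the 9 members together in the miRNA reads of each library (percent). Right, share of 3′UTR and CDS clusters that hold a let-7 family site (percent, bars are 95% Wilson intervals for counting error); both are higher in the adult, from 0.8162% to 2.4% for 3′UTR clusters and from 0.9597% to 2.202% for CDS clusters.

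The regions of the family sites differed from those of other miRNAs in several libraries, where a site listed in more than 1 region counts in each. Coding sequences held 45.6% (interval 42.8 to 48.4), 48.3%, 48.8%, 41.5% and 48.3% (45.9 to 50.6) of the family sites and 34.4%, 39.3%, 40%, 45.1% and 53% of all other sites. The family share was thus above the others before birth and below them at P7 and in the adult. Regions outside genes held 13.3%, 13.6% and 13.3% of the family sites before birth and 20.8%, 20.7% and 21.2% of the others, and in the adult 10.8% (9.4 to 12.3) and 11.8%. In introns the family had 26.6% at P7 and 26.8% in the adult against 20.1% and 20.7%, and 20.5% at e12.5 against 24.5%. 3′UTRs held 26.1%, 28.5%, 23.9%, 24.9% and 21.3% of the family sites and 22.8%, 25.5%, 24%, 25.4% and 19.6% of the others. Of the family sites between 80.8% and 83.8% were listed for all 9 members.

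The seed matches of the family were longer than those of most other miRNAs. 8mers, the most extended match, made up 25% (78 of 312, interval 20.5 to 30.1), 29.1%, 23.5%, 19.2% and 24.9% (93 of 374, interval 20.8 to 29.5) of its 3′UTR sites. Over all other miRNAs together the shares were 7.36%, 7.97%, 8.34%, 7.5% and 7.57%. Among seed families with at least 50 3′UTR sites, let-7 had rank 4 of 602, 3 of 381, 9 of 382, 12 of 582 and 5 of 381 by 8mer share. 6mers, the shortest match, were between 24.1% and 30.8% of the family's 3′UTR sites and between 52.6% and 54.1% of those of other miRNAs. No direction over the stages was seen in the 8mer share, whose intervals overlapped.

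**Figure D3:**
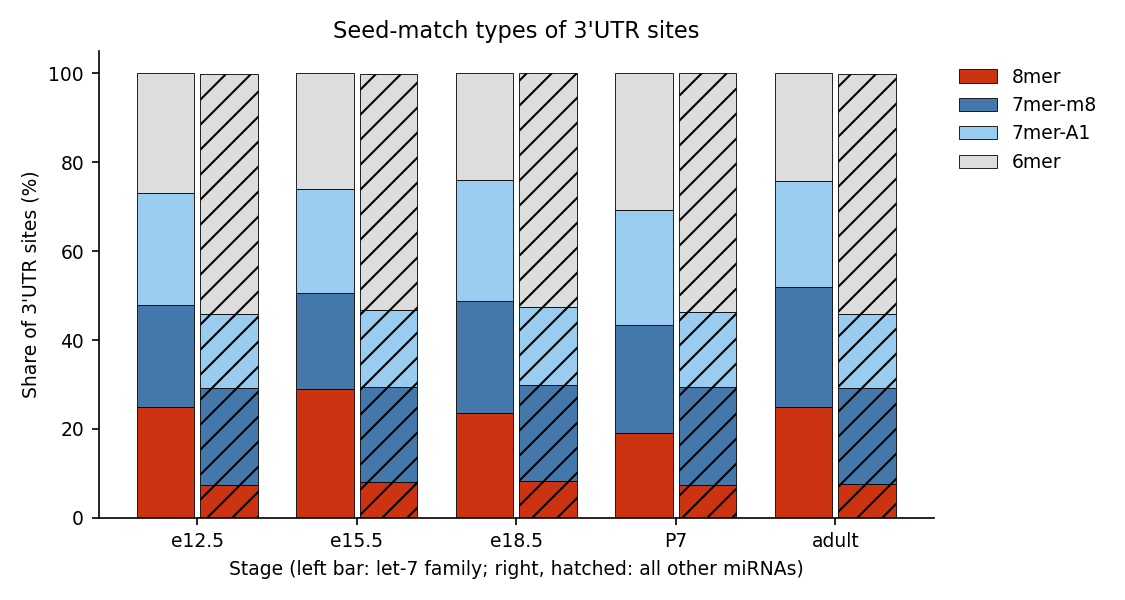
Seed-match types of 3′UTR sites in each library as percent of sites, for the let-7 family (left bar) and all other miRNAs (right, hatched bar). The 8mer part is 19.2% to 29.1% for let-7 and 7.36% to 8.34% for the others.

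The family's 3′UTR sites were also more conserved. The deposited conservation score, from 0 to 1, had a median of 0.993, 0.998, 0.991, 0.953 and 0.938 over the family's 3′UTR sites at the 5 stages, and of 0.304, 0.536, 0.363, 0.192 and 0.275 over those of other miRNAs. Among 8mers the family was higher, and among 6mers the order varied with the stage. In the adult the family's 8mers had a median of 0.999 and other 8mers 0.556, whereas its 6mers had 0.109 and other 6mers 0.213. Its 6mers were above the others at e12.5, e18.5 and P7 (0.514, 0.326 and 0.52 against 0.254, 0.296 and 0.156) and below them at e15.5 (0.156 against 0.478). In coding sequences both groups were high, with adult medians of 0.995 and 0.939. Median reads at the family's 3′UTR sites were 40, 38, 56, 20 and 30, and 34, 36, 28, 17 and 26 at those of other miRNAs.

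Most family sites were seen in a single library. Of the 4263 sites, 3048 were listed at 1 stage, 704 at 2, 301 at 3, 125 at 4 and 85 at all 5. The sites listed once were 71.5% of the family's and 81.7% of those of all other seed families, and those at all 5 stages were 1.99% and 0.71%. By the number of stages at which a site was listed, from 1 to 5, 8mers were 20.1%, 21.4%, 25.6%, 28% and 44.7% of the sites and median conservation was 0.209, 0.984, 0.994, 0.999 and 1. 6mers were 30.6%, 29.8%, 23.3%, 15.2% and 21.2%, and in 3′UTRs the 8mer share was 43.3% of 30 sites at 4 stages and 37.9% of 29 sites at 5, so the course was not steady. Within 3′UTRs median conservation was 0.841, 0.984, 0.993, 1 and 1, a smaller step from 1 to 2 stages than over all regions. Of the sites at all 5 stages 29 lay in 3′UTRs, and 20 of these had more reads in the adult than at e12.5 once scaled to the 3′UTR cluster reads, or 69%, against 61.6% of 2319 such sites of other families. Once the α-globin clusters were left out of the total, which shifts each such log2 value by -0.77, 16 of the 29 were higher in the adult, or 55.2%, against 50.3% of the sites of other families.

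α-globin held most of the reads of clusters with a family site. Hba-a1 and Hba-a2, near-identical genes for the α chain of adult haemoglobin whose reads cannot be told apart, each had a cluster with a family 6mer in the 3′UTR. The site, with its match in capitals, is printed because its clusters carried most of these reads.
Hba-a1 and Hba-a2: tctcccttgcacctgTACCTCt
Its core lies at chr11:32284449-32284454 and chr11:32297266-32297271, both on the plus strand. The clusters of both copies together held 43%, 41.8%, 52.1%, 30.8% and 3.17% of all 3′UTR cluster reads. Both copies listed the same reads at the site, so reads shared by the copies enter these totals more than once. Clusters with a family site took 43.97%, 42.53%, 52.89%, 33.65% and 5.135% of the 3′UTR cluster reads, and 1.63%, 1.22%, 1.61%, 4.11% and 2.03% once the α-globin clusters were left out. The direction between e12.5 and adult thus turned with these clusters. Hba-a1 is itself among the erythroid markers given above, and how far the cell makeup sets these values was not tested. The highest reads at the site of either copy were 28319, 24270, 14517, 2442 and 146, and conservation was 0.06 at Hba-a1 and 0.001 at Hba-a2. A cluster's reads are the highest over all its sites, so the cluster shares above are not reads at the family site. At e12.5 the larger α-globin cluster held 48.9% of the 2556444 reads of clusters with a family site. In the adult it held 30.8% of 57344. For other genes the reads at the family sites are given, and RPM stands for these reads per 1000000 3′UTR cluster reads with the α-globin clusters left out, of which the libraries held 3311610, 1559846, 1038081, 1164287 and 1081274. The largest adult cluster held no family site and stayed in this total, which lowers the adult RPM values. Without it the adult share of clusters with a family site was 8.373% of reads in place of 5.135%.

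Family sites in the 3′UTR were listed in 897 genes, with 291, 168, 161, 484 and 359 at the 5 stages. These were 3.46%, 2.83%, 2.69%, 5.97% and 6.24% of the genes with a 3′UTR site of any miRNA in the same library. 30 genes, or 3.34%, were listed at all 5 stages and 572, or 63.8%, at only 1. The medians over 223 seed families with at least 50 such genes at every stage were 1.05% and 69.6%. The e12.5 and adult libraries shared 90 genes, or 30.9% of the e12.5 genes and 25.1% of the adult genes. Over 305 seed families with at least 50 such genes in both libraries the median shares were 10.8% and 25.7%, and let-7 held ranks 4 and 165. Of the genes with a 3′UTR site of any miRNA the same libraries shared 55% and 80.5%. Coding sequences gave 1490 genes, of which 50 were listed at all 5 stages. A single 3′UTR site was found in 827 genes and 3 or more in 10, which were Adra2b, Ago2, Arid3a, Arid3b, Igf2bp1, Nr6a1, Pkn2, Ssh1, Zfp568 and Zfp652.

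The genes with most reads among those listed at all stages are each shown by their strongest site, as 22 bases of the sense strand of GRCm38 (mm10), 5′ to 3′. The matched bases are in capitals, and every one holds the reverse complement of bases 2 to 7 of the miRNA.
Pkn2: ataacactaaagctgTACCTCA
Rbms1: acgtgatcagttatCTACCTCA
Flna: ggaacctgctgtagaTACCTCA
Ccna2: gaccttcaccagacCTACCTCA
Pbx2: tctgactcggatatCTACCTCg
Ddost: aaaatggcacagcctTACCTCA
The core of the match lay at chr3:142792614-142792619 in Pkn2, chr2:60751084-60751089 in Rbms1, chrX:74235658-74235663 in Flna and chr3:36566594-36566599 in Ccna2, all on the minus strand, and at chr17:34596437-34596442 in Pbx2 and chr4:138312084-138312089 in Ddost on the plus strand. All of these lie in the 3′UTR, and those of Flna and Ccna2 are also listed as coding.

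Several of these sites had their fewest reads in the adult. Ccna2, which encodes cyclin A2 of the S and G2 phases, had 2808, 405, 450, 93 and 67 reads, or 848 RPM at e12.5 and 62 in the adult. Rbms1, an RNA-binding protein gene, had 3529, 1587, 1155, 1512 and 326 reads. The 3 sites of Pkn2, a serine/threonine protein kinase, had 3675, 1689, 864, 2394 and 160 reads together. For Rbms1 and Pkn2 the 4 earlier libraries lay between 832 and 2056 RPM and the adult at 301 and 148. Bach1, a haem-regulated transcriptional repressor, had 459, 253, 156, 45 and 104 reads and was lowest at P7. With 1 library per stage these differences have no replicate check.

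Others were highest around or after birth. Ddost, a subunit of the oligosaccharyltransferase of the endoplasmic reticulum, had 99, 127, 303, 488 and 410 reads, or 29.9 RPM at e12.5 and 379 in the adult. Flna, the actin crosslinker filamin A, had 230, 117, 648, 1397 and 335 reads, with its highest value at P7. Pbx2, a homeodomain protein, had 260, 321, 635, 500 and 215 reads and was highest at e18.5, as was Arid3a, an ARID-domain transcription factor, with 39, 107, 360, 238 and 48. The semaphorin gene Sema4c, the antiproliferative gene Btg2 and Tmppe were highest at P7 (426, 345 and 440 reads) and low in the adult (46, 29 and 53). Zfp568, a zinc finger repressor with 3 sites of low conservation, had 35, 5, 18, 332 and 234 reads, and Rnf167, a ubiquitin ligase, was highest in the adult with 247.

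**Figure D4:**
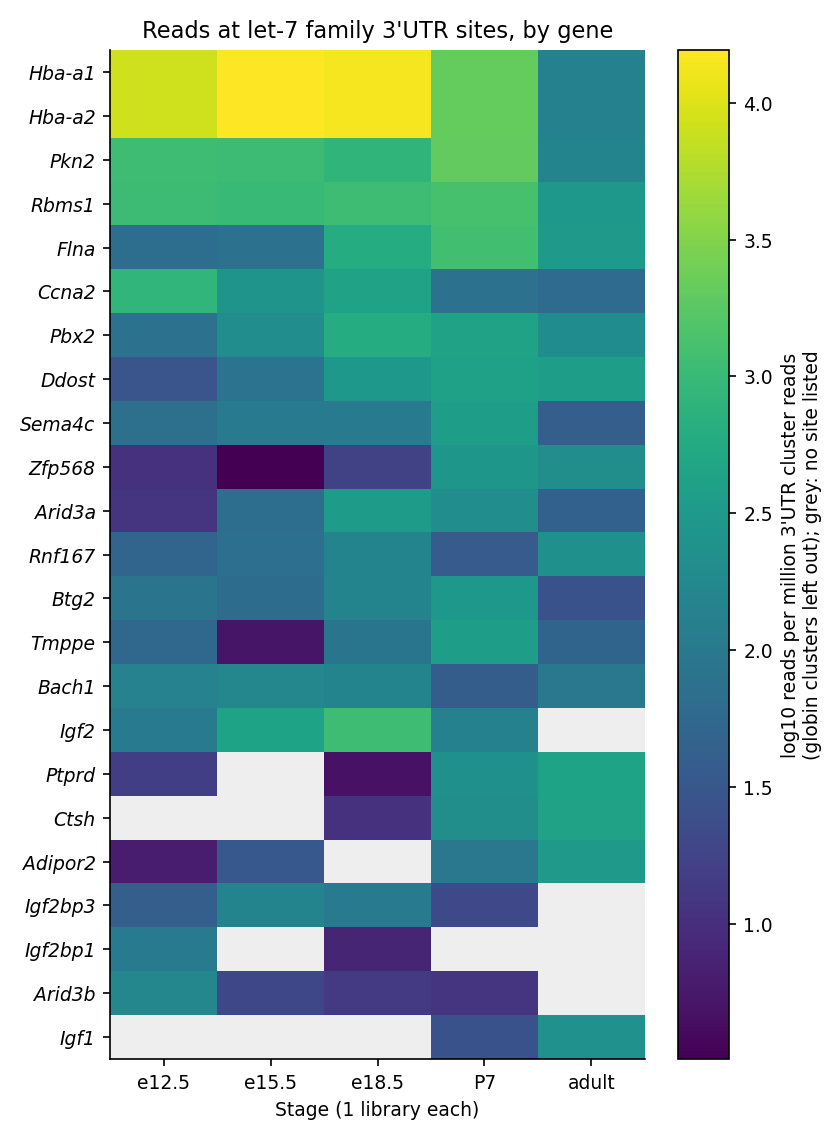
Reads at let-7 family 3′UTR sites by gene and library, as log10 of RPM; grey marks no listed site, and 1 library stands behind each column. Ccna2 is at 848 RPM at e12.5 and 62 in the adult, and Ptprd at 15.4 and 437.

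Of the 5 genes with most reads in the adult, Ddost and Flna were among those above, and the other 3 had few or no reads before birth. Their sites are shown with those of Igf1 and Igf2, which took opposite courses.
Ptprd: aagaaactagaaggCTACCTCA
Ctsh: gccaccaaaagtaaCTACCTCc
Adipor2: aacaaaaataaatcaTACCTCA
Igf1: aatatgtcatctacCTACCTCA
Igf2: gggcggctggaggttTACCTCA
The cores lay at chr4:75942577-75942582 (minus strand), chr9:90064177-90064182 (plus), chr6:119355613-119355618 (minus), chr10:87932095-87932100 (plus) and chr7:142651452-142651457 (minus), and that of Ctsh is also listed as coding and intronic. Ptprd, a receptor tyrosine phosphatase, had 51, 0, 5, 267 and 472 reads. Ctsh, the lysosomal protease cathepsin H, had 0, 0, 11, 247 and 467 reads, and Adipor2, an adiponectin receptor of liver, had 20, 52, 0, 110 and 338.

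The sites in the insulin-like growth factor genes were listed at different stages. Igf2, the fetal growth factor, had 366, 683, 1175 and 156 reads at its site up to P7, and no listed site in the adult. Igf1, which the liver secretes under growth hormone after birth, had no listed site before birth, 32 reads at P7 and 252 in the adult. Reads at a site depend on both the mRNA and its occupancy, and Igf2 had no listed mRNA cluster of any miRNA in the adult library, so an absent site cannot be told apart from absent mRNA.

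A gene with no listed site may have had one below the tables' lowest value of 5 reads. Genes listed only in the adult numbered 154, or 42.9% of the adult genes, against a median of 47.9% over the 223 seed families. The 2 with most reads, named after their values were seen, were Tat, the tyrosine aminotransferase of hepatocytes, with 209 reads and the cytochrome P450 gene Cyp2a5 with 202. Slc9a9, a sodium/proton exchanger gene, followed with 104 reads, and then Rdh16, Aldh6a1 and Apoa5, all genes of liver metabolism, with 96, 90 and 90. Those listed only at e12.5 numbered 115, or 39.5% of its genes, against a median of 56.9%, and the highest were Rab5b with 216, Slc2a3 with 198 and H2afx with 197 reads.

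Known let-7 target genes were taken as lists by function, which were chosen with earlier results of these data in view, so their counts are no independent evidence of targeting. Of the list genes with any 3′UTR site, 40 of 78 held a family site at some stage, or 51.3%, and 8.11% of all 11065 such genes did. Oncofetal and RNA-binding targets had a 3′UTR site in 10 of 14 genes, with 9, 5, 7, 6 and 3 at the 5 stages. Among them was Igf2bp3, an mRNA-binding protein gene, with 141, 230, 112, 24 and 0 reads. The 3 genes listed in the adult went the other way. Hmga1, Arid3a and Nr6a1 were at 14.8, 11.8 and 0 RPM at e12.5 and at 44.4, 44.4 and 54.6 in the adult. The fetal hepatoblast markers Afp, H19 and Igf2 together stood at 1.48%, 1.27%, 1.95%, 3.29% and 0.00227% of mRNA cluster reads, with Afp and Igf2 at 0 in the adult, and the part of this in the list's counts was not tested. Hmga2, Igf2bp2, Lin28a and Zfp322a had no listed family site.

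Of 11 cell cycle genes 7 had a 3′UTR site, with 6, 2, 1, 2 and 3 at the 5 stages. The libraries differ in their number of 3′UTR clusters, and the shares over all genes with a 3′UTR site given above, 3.46% at e12.5 and 6.24% in the adult, are the background of all these lists. Rrm2, a ribonucleotide reductase subunit needed for DNA synthesis, was listed at all stages with 94, 44, 66, 30 and 22 reads at an 8mer. Ccnd2, cyclin D2, had 138 reads at e12.5 and 11 in the adult, at different sites, and Cdc34, a ubiquitin-conjugating enzyme, had 93 and 30. The gene of cyclin F, Ccnf, had no 3′UTR site but a coding site in all 5 libraries, with 566, 153, 280, 62 and 35 reads. Ccnd1 and Cdc25a had none.

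Of 7 RAS and MAPK genes 2 had a 3′UTR site. Map3k1, a kinase upstream of JNK and ERK, was listed at all stages with 202, 58, 6, 56 and 69 reads at an 8mer, Nras only in the adult with 30, and Hras had none. Of 10 insulin and IGF genes 4 had a 3′UTR site, which besides Igf1 and Igf2 were Igf1r (27 reads at e15.5) and Igf2r (19 at P7). Of 9 TGF-beta, activin and cytokine genes 3 had one, and the type I receptor gene Tgfbr1 was listed at all stages with 35, 25, 110, 37 and 30 reads.

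Genes of apoptosis and matrix had a 3′UTR site in 6 of 7 cases. The collagen gene Col1a2 had 40, 5 and 56 reads at e12.5, e18.5 and P7, and Col3a1, another collagen gene, had 33 at e15.5 and 102 at P7. Fas, a death receptor, had 59 reads in the adult only. Scd1, a desaturase of fatty acid synthesis, had 54 reads at a 3′UTR site in the adult only, and Srebf1, Srebf2 and Abca1, genes of lipid and cholesterol control, had none.

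Of 18 genes of the let-7 processing and silencing machinery 7 had a 3′UTR site, with 5, 2, 1, 4 and 1 at the 5 stages. Ago2, an Argonaute precipitated in every library, had 4 3′UTR sites with 302, 40 and 42 reads together at e12.5, e15.5 and P7. Lin28b, the inhibitor of let-7 maturation, had 34 reads at e12.5 and 6 at e18.5. Tnrc6b, a silencing cofactor of Ago, had 13, 113 and 24 reads at e12.5, P7 and adult. Dicer1, which cuts the precursor, had a coding site in 3 libraries with 34, 24 and 29 reads at e12.5, P7 and adult, and no 3′UTR site.

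The members share a seed and differed in the predicted strength of the whole duplex. Over the 1470 adult sites listed for all 9 members, the mean free energy as deposited was lowest, and so most favourable, for let-7b at -13.66 ± 3.75 (SD over sites) and highest for miR-98 at -10.46 ± 2.62. let-7c and let-7e were close to each other at -12.96 ± 3.45 and -12.97 ± 3.28, and let-7f stood at -10.66 ± 2.81. At e12.5 the means were -12.59 ± 3.83 for let-7b and -10.14 ± 2.69 for miR-98 over 983 sites. The values of the members overlapped widely over sites. Within a site the members spanned a median of 5.9 in the adult. let-7b had the lowest energy or tied for it at 29.2% of the adult sites and 23.1% of those at e12.5, let-7e at 24.9% and 24.6%, and let-7c at 10.4% and 9.97%. The sites of the members are the same sites, and the values are not independent.

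**Figure D5:**
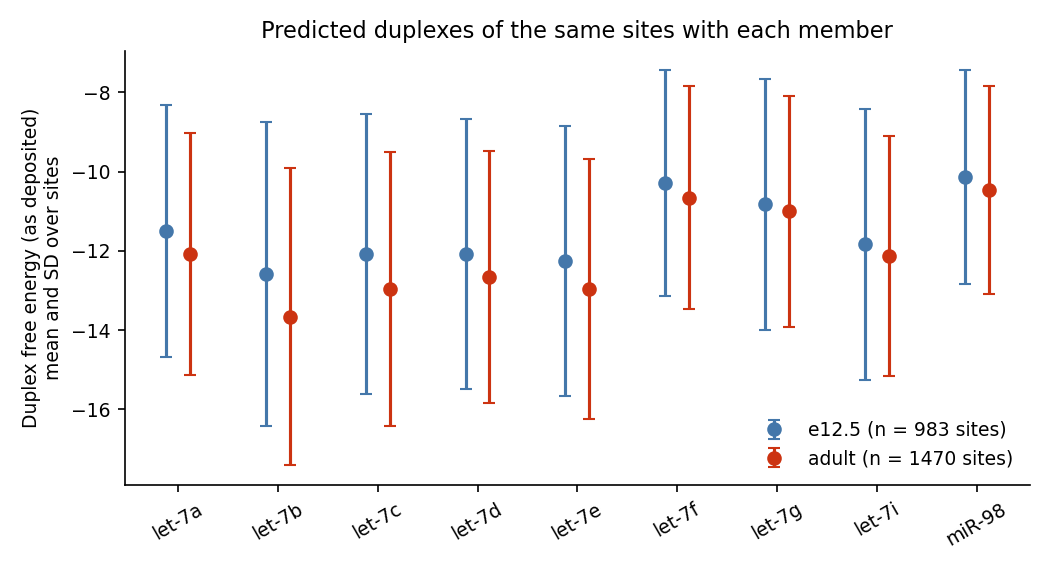
Deposited duplex free energy of each member at the sites listed for all 9 members (points are means and bars SD over sites; 983 sites at e12.5 and 1470 in the adult). let-7b is lowest, at -13.66 in the adult, and miR-98 highest, at -10.46, with wide overlap between members.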

How the data were processed

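Ago HITS-CLIP libraries of mouse liver at 5 stages were analysed from 1 interaction table each. The authors processed reads with the FASTX-Toolkit, aligned these by Bowtie (mm10; precursors of miRBase v19), built clusters from reads that overlap, assigned genes by refGene and Ensembl and searched mRNA clusters for seeds; versions are not given in the sources used here, and the submitters' processing notes also list mm9. The methods state 2 biological replicates, which the labels do not tell apart. All checked family sites matched GRCm38. The deposited read value is an unscaled signal, the highest read number at a target site, with 5 as its lowest value. A cluster's reads were the highest over its sites. The deposited conservation and free energy are scores. Since clusters without a seed match are not listed, table totals are no library depth. miRNA reads numbered 7781484 to 25546696 per library, and 3′UTR clusters 15914 to 39452.

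Entries naming a member were taken and collapsed by position and strand. The numbers of miRNAs with several copies were taken from the highest copy, and the 2 lists of embryonic tables were added, with overlapping clusters joined. Seed families share bases 2 to 8. let-7k and miR-1961 share the seed but are no members, and any entries of theirs were counted with the other miRNAs and seed families. Shares have 95% Wilson intervals. Seed families reaching 50 3′UTR clusters in each of a pair of libraries were compared by two-sided Fisher's exact tests with Benjamini-Hochberg adjustment at 0.05, after a check on simulated data. Genes were named by scaled 3′UTR reads: the 15 highest among those listed at all stages, the 5 highest per library, and members of function lists; the genes listed only in 1 library were picked after their values were seen. Members and lists were chosen with earlier results of these data known. Alternatives were seed types, read minimum, lists, equal cluster numbers, genes as unit, CDS and, chosen after seeing the data, removal of α-globin clusters. Python 3.11.15, pandas 2.3.3, scipy 1.17.1 and matplotlib 3.10.9 were used. Some genes of the lists are not reported here.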

Additional observations from a re-analysis of the deposited data

How the results depend on the processing

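No paired analysis was possible because each stage has 1 library, and for the same reason no replicate could be left out. The e12.5 to adult difference in family sites was called under all 8 alternatives (log2 odds ratio 1.12 to 1.66). From P7 to adult it was 0.02 (adjusted exact p = 0.999) with equal cluster numbers and called under the other alternatives, and from e12.5 to e15.5 it was -0.15 with equal cluster numbers. The first list of e15.5 alone held too few family clusters for that test.

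The family share of miRNA reads was higher at each later stage under every alternative run. In the order of the stages it was 3.99%, 5.76%, 8.42%, 21.8% and 28% with gene copies summed, and 3.62%, 5.74%, 7.52%, 17.4% and 26.1% without the most abundant other miRNA. The first list gave 2.12%, 4.84% and 5.02% and the second 2.54%, 3.2% and 7.74% for e12.5, e15.5 and e18.5. With at least 7 matched bases the share of 3′UTR clusters was 0.598%, 0.708%, 0.786%, 1.22% and 1.81%. With genes as the unit it was 3.46%, 2.83%, 2.69%, 5.97% and 6.24%. Equal cluster numbers gave 1.12% at e12.5 and 2.36% at P7, CDS clusters 0.96% at e12.5 and 1.26% at e18.5, and a minimum of 10 reads 2.01% at P7, where the 3′UTR part of family sites was then 27.1%. The share of 3′UTR cluster reads was 28.6%, 27.3%, 36.3%, 21.6% and 8.37% without the largest cluster. Up to P7 that was an α-globin cluster and the share fell. In the adult it was a cluster without a family site, and the share rose from 5.135%. Without α-globin clusters the shares were 1.63%, 1.22%, 1.61%, 4.11% and 2.03%. Numbers of target genes, recomputed only with at least 7 matched bases and with a minimum of 10 reads, stayed within 1.5 times under both.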
